A study of Mus musculus with 4 samples.

Results

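Stretches of the genome in which Trim33 peaks lay close together were examined in T helper 17 (Th17) cells, CD4 T cells that make IL-17. A chain was a run of neighbouring peak summits at most 12.5 kb apart on chromosomes 1 to 19, and runs of 10 or more summits were kept. This gave 43 chains with 525 peaks, out of 26631 peaks on these chromosomes (1.97%) and 27050 peaks in all. The chains were chosen by the summit positions in the peak list, so every value from that list is given below as a description with no test. One further run, of 53 summits over the gene Sfi1 on chromosome 11, was left out by the same rule. Its median fold was 2.88, and 30 of its 53 peaks (56.6%) were below 3-fold, against 2 of the 525 chain peaks (0.381%) and 1.01% of all peaks on chromosomes 1 to 19.

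The cells were naive CD4 T cells from spleen and lymph nodes of C57BL/6 mice, grown into Th17 cells in culture with antibodies to CD3 and CD28, IL-6, TGF-beta and antibodies that block IL-4 and IFN-gamma. No genotype, age or other treatment is given in the labels. The series has 2 libraries made with an antibody to Trim33 and 2 input DNA libraries, but the name of the deposited peak list says that replicates were merged, and no label says how. The list holds 1 value per peak, with no value per library, so the spread between cultures and the depth of each library are unknown. The fold enrichment is the authors' value, the signal at the summit divided by the background of their peak caller. It is used here only to describe and rank peaks within this list.

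Trim33 (TIF1-gamma) is a nuclear ubiquitin ligase that reads modified histone H3 tails through a PHD finger and a bromodomain and works with SMAD proteins in TGF-beta signalling. Stretches with many closely spaced regulatory elements are often called super-enhancers or stretch enhancers, and they are known to lie at genes that define a cell type. A link distance of this size is common in work on such elements. The peak list measures Trim33 only, so it cannot show which of these stretches are active, nor check the cell type against its expressed markers.

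Of the chain summits, sequence was at hand only for those in promoters. RefSeq promoter sequences (GRCm38.p6, the assembly behind mm10) covered 17491 protein-coding genes. Among these sequences, 30 promoters of 29 genes held 29 chain summits between 250 bp before and 50 bp after the start. Genes without such a sequence, Ccr7 and Ago2 among them, could not be counted. The 250 bases before the start are shown for 5 of them, chosen after their values were seen. These are the 3 with the highest fold, at Jak2 (20.6-fold), Supt4a (11.1-fold) and Mcl1 (9.24-fold), and the 2 that hold the SMAD letters searched for, at Dusp2 (7.10-fold) and Cish (3.87-fold). Jak2 encodes a kinase of cytokine receptors, Supt4a a subunit of an elongation factor of RNA polymerase II, and Mcl1 a protein that blocks apoptosis. Dusp2 encodes a phosphatase of MAP kinases, and Cish a feedback inhibitor of IL-2 family signals. Each run reads 5′ to 3′ on the strand of the gene, and capitals mark matches to the 6 motifs given below.
Jak2, chr19:29251553-29251802, plus strand: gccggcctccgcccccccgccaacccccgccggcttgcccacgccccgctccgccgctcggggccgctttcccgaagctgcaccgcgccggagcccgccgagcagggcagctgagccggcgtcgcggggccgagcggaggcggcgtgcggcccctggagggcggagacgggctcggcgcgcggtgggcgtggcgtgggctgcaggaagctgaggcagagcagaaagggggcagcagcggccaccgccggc
Supt4a, chr11:87737301-87737550, plus strand: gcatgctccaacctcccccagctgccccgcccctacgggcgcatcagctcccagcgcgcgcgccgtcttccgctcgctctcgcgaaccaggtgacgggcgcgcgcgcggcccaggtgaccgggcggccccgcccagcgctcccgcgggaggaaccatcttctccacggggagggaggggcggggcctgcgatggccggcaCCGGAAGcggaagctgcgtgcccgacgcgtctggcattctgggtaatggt
Mcl1, chr3:95658471-95658720, plus strand: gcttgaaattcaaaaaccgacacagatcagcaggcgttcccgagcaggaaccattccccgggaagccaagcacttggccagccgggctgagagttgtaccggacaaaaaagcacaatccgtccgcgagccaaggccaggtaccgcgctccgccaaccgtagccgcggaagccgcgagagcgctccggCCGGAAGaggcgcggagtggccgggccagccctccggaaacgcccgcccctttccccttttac
Dusp2, chr2:127335909-127336158, plus strand: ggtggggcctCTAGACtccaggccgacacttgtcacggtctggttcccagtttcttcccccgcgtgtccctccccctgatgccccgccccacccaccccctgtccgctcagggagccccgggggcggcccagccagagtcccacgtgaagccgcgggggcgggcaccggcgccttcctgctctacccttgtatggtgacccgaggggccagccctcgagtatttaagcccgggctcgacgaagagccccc
Cish, chr9:107296409-107296658, plus strand: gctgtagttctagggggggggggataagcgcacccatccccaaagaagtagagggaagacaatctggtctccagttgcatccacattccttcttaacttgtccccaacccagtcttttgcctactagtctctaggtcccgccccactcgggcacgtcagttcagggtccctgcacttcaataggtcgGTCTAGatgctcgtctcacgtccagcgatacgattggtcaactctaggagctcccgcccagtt

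In these runs the summit lay at base 92 for Jak2, 69 for Supt4a, 235 for Mcl1, 89 for Dusp2 and 4 for Cish, counted from 1 at the 5′ end. The motifs, searched on both strands of the 250 bases, were GTCTAG (SMAD), TGANTCA (AP-1), CCGGAAG (ETS), TGTGGTT (RUNX), TTCNNNGAA (STAT) and AGGTCA (core site of ROR receptors). The Jak2 run held no match to any of them. The ETS letters began at base 201 in Supt4a and 188 in Mcl1, and the SMAD letters at base 11 in Dusp2 and 188 in Cish. Among the 30 promoters with a chain summit, 2 held the SMAD letters (6.67%) against 7.13% of all 20084 promoters of protein-coding genes on these chromosomes. The ETS letters were in 3 (10.0% against 9.21%), the ROR letters in 4 (13.3% against 12.9%), the STAT letters in 2 (6.67% against 6.66%), and the AP-1 and RUNX letters in 1 each (3.33%, against 6.18% and 3.84%). With 30 promoters, these shares rest on 1 to 4 matches each. GC content was taken from 250 bp before to 50 bp after the start. Promoters with a chain summit had a median of 63.3%, from 42.7% (Il2ra) to 81.0% (Jak2). The median of all promoters, with or without a Trim33 summit, was 57.0%. Promoters with a summit outside chains were not set apart, so this difference cannot be tied to chains.

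A chain also held a microRNA gene known from blood cells. The chain on chromosome 11 between Supt4a and Tspoap1 held Mir142, which makes a microRNA abundant in blood cells, and Mir142b on the other strand. The nearest summit lay 346 bp from the middle of the Mir142 hairpin and had 3.71-fold enrichment, and 6 summits lay within 5 kb. The mature sequences of Mir142 from RefSeq (GRCm38.p6) are shown with the seed, bases 2 to 8, in capitals, since the arms have different seeds.
mmu-miR-142a-5p: cAUAAAGUagaaagcacuacu
mmu-miR-142a-3p: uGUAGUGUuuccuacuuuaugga
The other miRNA genes in chains, Mir6973a and Mir6974, lay in the chain over the TNF genes, with summits of 4.95-fold and 5.38-fold nearest to them. In all, 4 of 1136 miRNA genes on chromosomes 1 to 19 overlapped a chain (0.352%).

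Chains were the end of a steep series of run sizes. Of 15781 runs with the Sfi1 run left out, 10001 were single summits and 22 had 9 summits, and 11 had 10. The 43 chains had 10 to 17 summits and lay on 18 chromosomes, every one from 1 to 19 except 18. Chromosome 9 had 5 chains, and chromosomes 1, 4 and 11 had 4 each. Just inside the limit, the 110 peaks in runs of exactly 10 had a median fold of 5.81, and just outside it the 198 peaks in runs of 9 had 6.06.

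**Figure D1:**
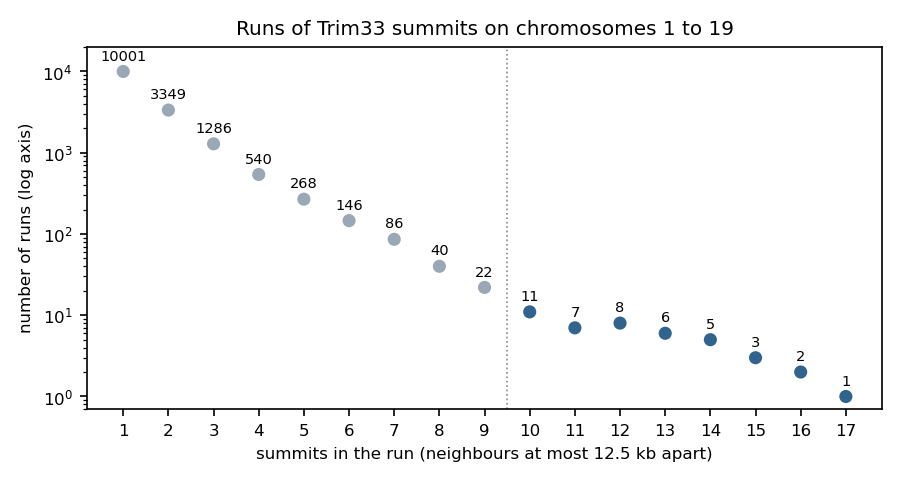
Number of runs of Trim33 summits (log axis) against the number of summits in the run, on chromosomes 1 to 19 without the Sfi1 run. Each point is a count printed beside it, and the dotted line separates runs of 9 (22 runs) from the 43 chains of 10 to 17 summits in darker blue.

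The chains covered 1.82 Mb from first to last summit, with spans of 11.9 to 81.1 kb and a median of 40.6 kb. Neighbouring summits in a chain lay 169 to 12453 bp apart, with a median of 2751 bp (quartiles 954 and 5707 bp), and 126 of 482 gaps were under 1000 bp. Density ran from 1.62 to 8.42 summits per 10 kb, with a median of 2.96. The chains beside Tacc1 (10 summits in 11.9 kb) and over Crlf2 (12 in 14.4 kb) were the densest, followed by those near Ccr1 (11 in 17.9 kb) and Tnfrsf19 (14 in 27.6 kb). The widest chain, over Ccr7, held 15 summits in 81.1 kb. Peaks themselves made up 3.55% to 33.4% of the span, with a median of 8.25%, so most of each chain lay between peaks.

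**Figure D2:**
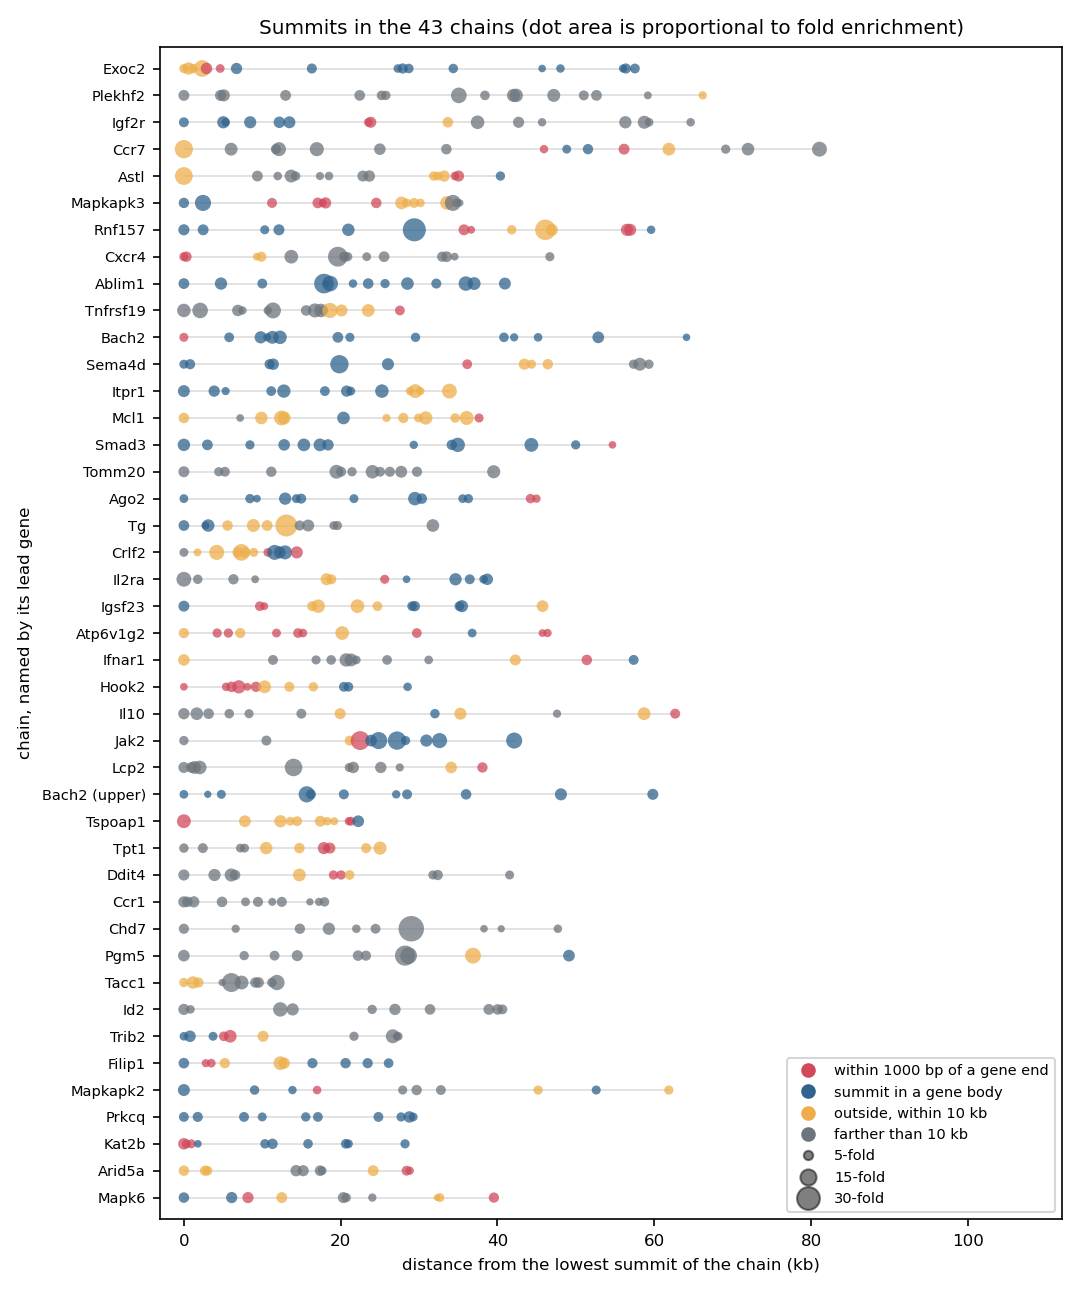
Position of every summit in the 43 chains, in kb from the lowest summit of the chain, with chains sorted by their number of summits and named by their lead gene. Dot area is proportional to the authors' fold enrichment and colour gives the position against protein-coding genes. The rows run from 17 summits at Exoc2 to 10 at Mapk6, and the Tacc1 and Crlf2 rows are the most compact.

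Peaks in chains were about as high as other peaks. The chain peaks had a median of 6.04-fold and quartiles of 4.81 and 8.25-fold. All peaks on these chromosomes had a median of 6.00-fold, with quartiles of 4.88 and 7.77-fold. Of the 525 peaks, 71 (13.5%) reached 10-fold, against 11.1% of all peaks, and 29 (5.52%) were among the 1000 highest of the whole list, against 3.71%. The median width was 235 bp in chains and 227 bp overall. Medians per chain ran from 4.88 in the Mapkapk2 chain to 8.86 in the Tnfrsf19 chain.

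Within a chain, heights were uneven. The highest peak had 1.16 to 7.58 times the median of its chain, and the median of this ratio was 2.05. In 11 chains the highest peak had over 1.5 times the fold of the next. The most uneven was the chain beside Chd7, where 1 peak of 37.4-fold stood among 9 others of 8.74-fold or less. The chain over Tg had 27.8-fold against 9.74-fold for its next peak, and the Cxcr4 chain 22.5-fold against 10.8-fold. At the other end, the Mapk6 chain had its highest pair at 7.24-fold each, and the Arid5a chain ran up to 7.51-fold and 7.14-fold. In 8 chains no peak reached 10-fold.

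**Figure D3:**
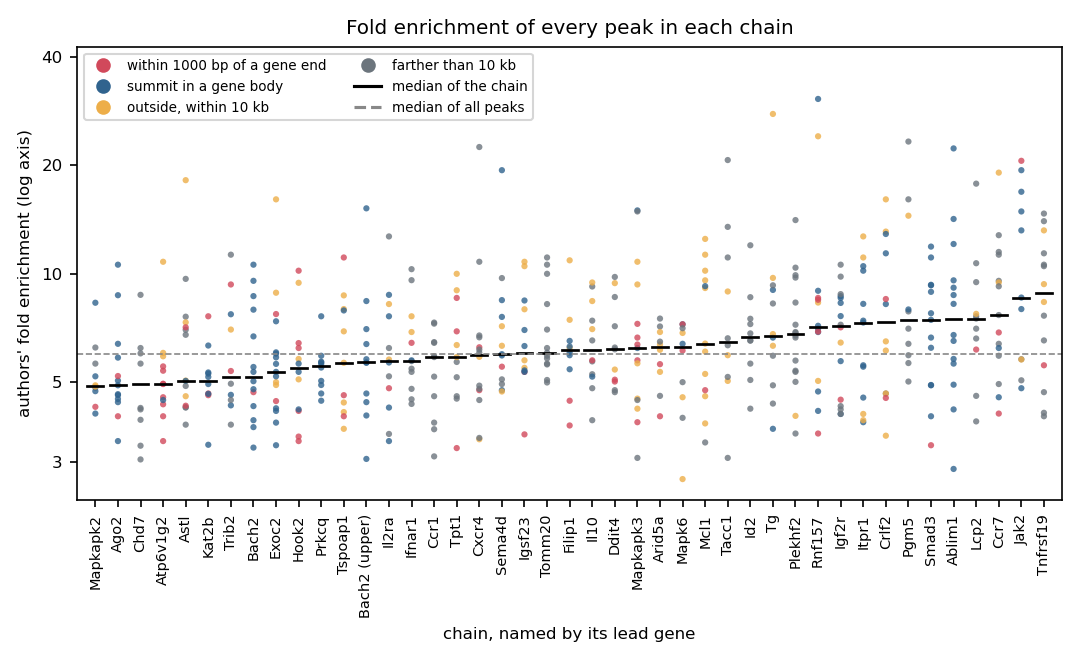
Authors' fold enrichment (log axis) of every peak in each chain, with chains ordered by their median (black lines) and the median of all peaks on these chromosomes dashed at 6.00. Medians run from 4.88 (Mapkapk2) to 8.86 (Tnfrsf19), and single peaks reach 37.4-fold in the chain beside Chd7 and 30.6-fold inside Rnf157.

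A smaller share of chain summits than of all peaks lay at gene ends. Of the 525 summits, 69 (13.1%, exact binomial 95% interval 10.4% to 16.3%) had a protein-coding gene end no more than 1000 bp away, and 27.6% of all peaks did. Gene bodies away from the ends held 168 (32.0%, interval 28% to 36.2%), against 38.6%. Ends are the outer ends of a gene, so gene-body summits include some at internal starts, such as those of Ablim1 and Sema4d. A further 102 (19.4%, 16.1% to 23.1%) lay outside genes within 10 kb, against 10.1%, and 186 (35.4%, 31.3% to 39.7%) lay farther away, against 23.6%. Intervals cover counting error only and take summits as independent, which neighbours in 1 chain are not. Chains were chosen by the spacing of summits, and how much of the lower share at gene ends comes from that choice was not tested. The share at gene ends was 32.6% for single summits, 27.2% in runs of 2 to 4, 16.3% in runs of 5 to 9 and 13.1% in chains, so it was lower in each larger of these 4 classes. The order did not go on within the longest runs, with 11.1% in runs of exactly 9, 10.9% in runs of exactly 10 and 13.9% in chains of 12 or more. Counting every summit inside any gene body, ends included, gave 202 in chains (38.5%) and 53.9% of all peaks.

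**Figure D4:**
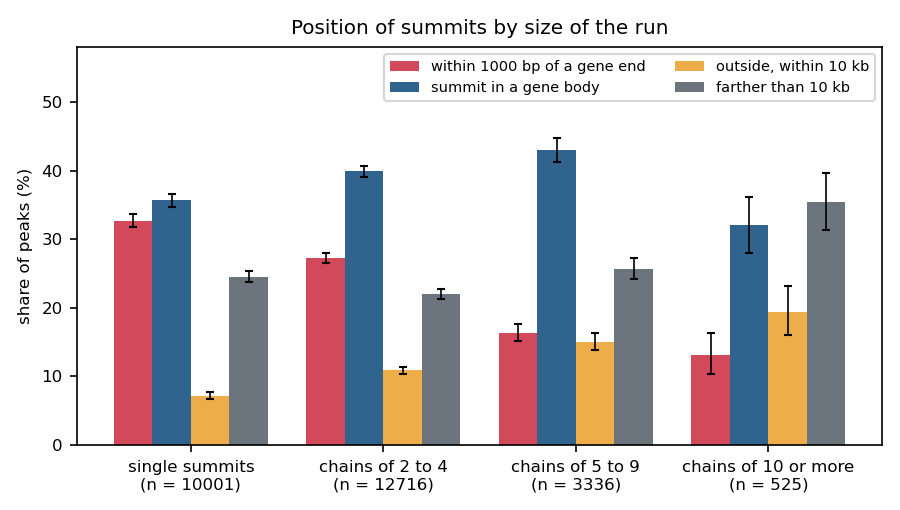
Share of summits in 4 positions against protein-coding genes, for single summits and for runs of 2 to 4, 5 to 9 and 10 or more summits. Error bars are exact binomial 95% intervals (counting error only). The share within 1000 bp of a gene end goes from 32.6% in single summits to 13.1% in chains, and the share outside genes but within 10 kb from 7.16% to 19.4%.

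Chain peaks at gene ends had a lower median fold than chain peaks elsewhere. The 69 gene-end peaks in chains had a median fold of 5.20, and 3 of them (4.35%) reached 10-fold, against 8.99% of all other gene-end peaks. The 102 peaks outside genes within 10 kb had a median of 6.65, and 20 (19.6%) reached 10-fold, against 11.6% of all other such peaks. Medians were 5.92 for the 168 peaks in gene bodies and 6.22 for the 186 farther away. Among all other peaks the median was 5.80 at gene ends, 6.04 within 10 kb, 5.98 in gene bodies and 6.24 farther away. The highest peak of the chain lay at a gene end in 4 of 43 chains, those over Jak2, Kat2b and Hook2 and the one that begins at Supt4a. It lay in a gene body in 11 chains, outside genes within 10 kb in 12 and farther away in 16. These counts stand beside the shares of all chain peaks. Those were 13.1% at gene ends, 32.0% in gene bodies, 19.4% within 10 kb and 35.4% farther away.

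Direction could be read where the promoter table gives the strand of the lead gene, the gene whose body held most summits or, with none, the nearest gene. Over 34 such chains, 173 of 413 summits lay upstream of the lead gene, 154 inside it and 86 downstream. Most summits were upstream in 16 chains, inside in 9 and downstream in 8. The lead gene was chosen by its summits, so the inside count follows in part from the rule. Upstream summits can also lie at other genes of the chain. This holds for the 10 upstream of Atp6v1g2 (over Ltb, Tnf and Lta), the 14 upstream of Astl (at Dusp2) and the 13 upstream of Mapkapk3 (at Cish). The same counts were not made over all peaks, so no bias in direction can be read from them. A chain had no summit near any outer gene end in 12 of 43 cases. These include the Ablim1 chain, which had a summit 1 bp from an internal start. In 25 chains a summit lay within 1000 bp of a listed start. By peak, 53 of 525 (10.1%) lay that near a listed start, against 24.1% of all peaks. Starts are listed for only 16456 of the 20661 protein-coding genes, so the 25 may be too low. Ccr7 and Ago2, with summits 218 and 270 bp from a gene end, have no listed start.

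The chains overlapped 50 protein-coding genes, 0.242% of the 20661 on chromosomes 1 to 19, and 45 of these held a summit in their body. The genes in chains had a median length of 21.1 kb, and all protein-coding genes 17.5 kb. A chain overlapped 1 gene in 24 cases, 2 or more in 11 and none in 8. Another 82 genes (0.397%) were the next gene on either side of a chain and lay in none. Gene lists for T cells, chosen with earlier results of these data known, held 11 of 214 genes in a chain (5.14%), in 12 chains with 151 summits. With the next gene on each side counted as well, 19 chains overlapped a listed T cell gene or had one as the next gene. Such a next gene lay up to 131856 bp away (Id2). Of the 214 listed genes, 6 were next to a chain and in none, against 0.397% of all protein-coding genes. The lists for B cells, myeloid and dendritic cells, CD8 and NK cells, non-haematopoietic tissues and housekeeping genes had 0 of 77 genes in a chain and 1, Mpo, next to one. By list, cytokine receptors and JAK-STAT genes had 3 of 23 in chains (Il2ra, Jak2 and Cish), T cell receptor and costimulation genes 2 of 27 (Lcp2 and Prkcq) and regulatory T cell genes 1 of 11 (Il2ra). The Th17 list had 1 of 24 (Il10), T cell transcription factors 1 of 28 (Bach2), TGF-beta and SMAD genes 1 of 20 (Smad3) and NF-kB and AP-1 genes 1 of 24 (Junb). Chemokine receptor and migration genes had 1 of 19 (Ccr7) and signalling regulators 1 of 20 (Dusp2). The lists of inhibitory receptors (14 genes) and of other helper fates (15 genes) had 0. Il17a, Il17f and Il23r, which mark Th17 cells, were in no chain.

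The kinase gene Jak2, which signals for the IL-12, IL-23 and interferon-gamma receptors, had the chain with the second highest median, 8.59-fold. From low to high coordinates on chromosome 19 (29229161 to 29271290) its 11 peaks had 5.06, 5.79, 5.78, 20.6, 7.98, 16.9, 19.4, 4.81, 8.59, 13.2 and 14.9-fold enrichment. The 3 peaks upstream of the promoter were thus below 6-fold, the promoter peak was the highest, and 4 of the 7 peaks inside the gene exceeded 13-fold. The promoter summit lay 159 bp before the start and ranked 133 of all peaks; its sequence is the Jak2 run above.

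Other cytokine receptor and signalling genes were arranged differently. Il2ra, the high-affinity IL-2 receptor chain, had 12 summits on chromosome 2 (11617034 to 11655730), 7 upstream and 5 inside the gene. The highest (12.7-fold) was the most distant from Il2ra and lay nearer to the next gene, Rbm17, 13835 bp away. On the other side Il15ra lay 49442 bp above the last summit. The Il2ra promoter peak, 141 bp before the start, had 4.81-fold. The chain over Cish on chromosome 9 (107278696 to 107313894) took its name from Mapkapk3, a kinase downstream of p38, which held 2 of its 15 summits. At Cish the peaks near the ends had 6.65, 3.87, 7.26 and 6.36-fold, and the highest of the chain were 15-fold inside Mapkapk3 and 14.9-fold above Cish. The Ifnar1 chain on chromosome 16 (91433684 to 91491052) began 7850 bp above Il10rb, a subunit of the IL-10 receptor, and ran into Ifnar1, a subunit of the type I interferon receptor. Of its 12 summits 10 lay upstream of Ifnar1, the highest at 10.3-fold. The gene Ifngr2, for a subunit of the interferon-gamma receptor, lay 56007 bp above the last summit.

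Crlf2, which encodes the receptor chain for the cytokine TSLP, had 12 summits in 14.4 kb on chromosome 5 (109544677 to 109559075). Peaks of 13.1 and 16.1-fold lay beyond its 3′ end and peaks of 12.9 and 11.4-fold inside it, and the promoter peak had 8.51-fold.

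**Figure D5:**
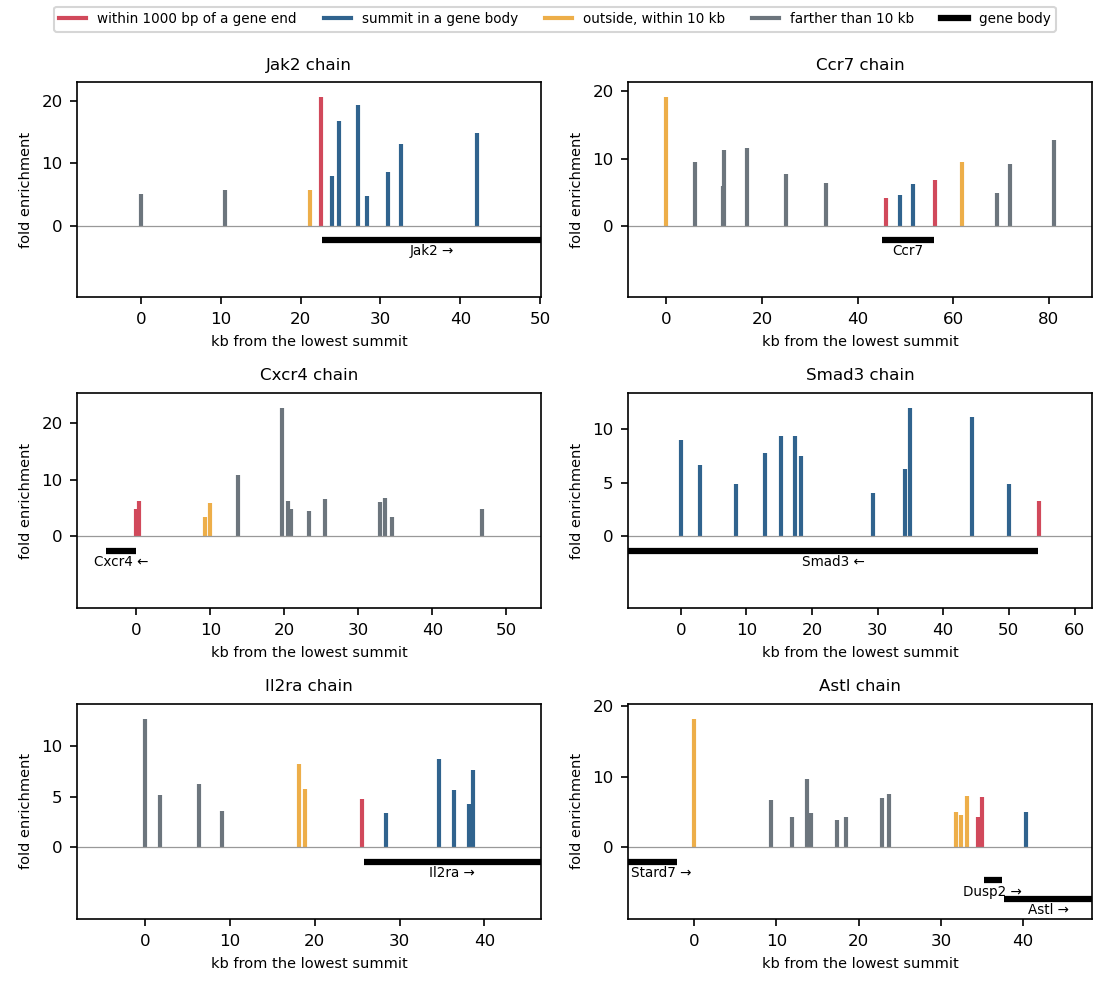
Authors' fold enrichment (height of the vertical lines) of each peak in 6 chains, against the distance in kb from the lowest summit, with protein-coding genes as black bars and arrows for strand where it is known. At Jak2 the promoter peak is the highest (20.6-fold), whereas at Cxcr4 (22.5-fold), Ccr7 (19.1-fold), Il2ra (12.7-fold) and Dusp2 in the Astl chain (18.2-fold) the highest peak lies away from the gene end.

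The chemokine receptor genes Ccr7 and Cxcr4 had chains spread far outside the gene. Ccr7 guides T cells into lymph nodes, and Cxcr4 guides homing to bone marrow. The Ccr7 chain on chromosome 11 (99099153 to 99180221) had 15 peaks of 19.1, 9.56, 5.92, 11.3, 11.5, 7.68, 6.39, 4.09, 4.54, 6.22, 6.87, 9.46, 4.94, 9.23 and 12.8-fold. The 3 peaks inside Ccr7 were among the lower ones, at 4.09, 4.54 and 6.22-fold, and the highest peaks were at the outer edges, with Tns4 9847 bp below the first and Smarce1 28826 bp above the last. The Cxcr4 chain on chromosome 1 (128592305 to 128638981) began 6 bp before the start of Cxcr4, and all 14 summits lay upstream. Its promoter peaks had 4.75 and 6.25-fold, and the highest, 22.5-fold, lay 19648 bp from the gene and ranked 84 of all peaks. On the far side the next protein-coding gene, Thsd7b, was 634209 bp away.

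A chain near Ccr1, a receptor for inflammatory chemokines, lay wholly between protein-coding genes on chromosome 9 (123924325 to 123942267). Its 11 peaks had 3.11 to 7.32-fold enrichment, so none reached 10-fold. Ccr1 lay 19859 bp above the last summit and Xcr1 62296 bp below the first.

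Bach2, a transcriptional repressor that restrains effector differentiation, was the only protein-coding gene that overlapped more than 1 of the 43 chains. Both lay inside the gene on chromosome 4, and a gap of 12729 bp, just over the link distance, separated them. The lower (32238654 to 32302763) had 14 summits up to 10.6-fold, and the upper (32315492 to 32375305) had 11 up to 15.2-fold. The chain with the most summits, 17, lay on chromosome 13 (30785752 to 30843276) beside Irf4, a factor that Th17 cells need. Of its summits 12 were inside Exoc2, a gene of the exocyst complex, and 5 lay beyond the 3′ end of Exoc2, toward Irf4. The highest was 16.1-fold at 1432 bp from Exoc2, and Irf4 ended 18771 bp below the first summit. The 12 peaks inside Exoc2 had 3.34 to 7.38-fold.

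Other genes for transcription factors overlapped a chain or were the next protein-coding gene to one, at times far away. Smad3, which carries TGF-beta signals, had 13 summits on chromosome 9 (63703600 to 63758266), 12 of them inside the gene. They had 8.91, 6.65, 4.90, 7.77, 9.29, 9.32, 7.45, 4.02, 6.23, 11.9, 11.1 and 4.91-fold, and the 1 outside, 272 bp before the start, had 3.34-fold, the lowest. The AP-1 gene Junb lay in a chain on chromosome 8 (84969539 to 84998074) with Rnaseh2a, Prdx2 and Hook2. The highest of its 12 peaks (10.2-fold) lay 358 bp beyond an end of Junb, and the peak 11 bp inside the start had 6.22-fold. A chain upstream of Id2, an inhibitor of E proteins, lay far out on chromosome 12 (25227948 to 25268576). Its 10 summits began 131856 bp from Id2 and reached 12-fold, and the next protein-coding gene on the far side was 1038218 bp away. The Itpr1 chain on chromosome 6 (108524334 to 108558205) had 13 summits up to 12.7-fold, 9 of them in Itpr1, a calcium channel of the endoplasmic reticulum. Bhlhe40, a factor that limits Il10, lay 102424 bp above it.

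Genes of the T cell receptor pathway had 2 chains of unlike form. Prkcq, a kinase recruited to the synapse with the antigen-presenting cell, had 10 summits inside the gene on chromosome 2 (11187399 to 11216649), all between 4.44 and 7.62-fold and none near an end. Lcp2, the adaptor SLP-76, had 11 summits on chromosome 11 (34008996 to 34047075), of which 10 lay upstream and 1, of 6.16-fold, was 147 bp inside the start. Its highest peak, 17.8-fold, lay 23945 bp upstream.

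The phosphatase gene Dusp2 lay in a chain of 15 summits on chromosome 2 (127300958 to 127341332) named for its neighbour Astl, which held 1. No summit was inside Dusp2, and 14 of the 15 lay upstream of it. The peak 162 bp before its start had 7.10-fold, and the highest, 18.2-fold, was at the far edge, 2023 bp above Stard7. In the same neighbourhood as Il10, the gene of the anti-inflammatory cytokine IL-10, chromosome 1 held a pair of chains 27469 bp apart. The first (130990772 to 131053436) had 12 summits of 3.92 to 9.46-fold, of which 1, of 5.18-fold, was inside Il10. Its highest peak lay 4228 bp below Mapkapk2, and its last summit 264 bp below Mapkapk2. The second (131080905 to 131142763) had 10 of 4.09 to 8.31-fold over Mapkapk2, a p38-activated kinase that stabilizes cytokine mRNAs, and Dyrk3. Neither had a peak of 10-fold.

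The chain on chromosome 17 (35190153 to 35236535) overlapped the most genes, 5. These were Ltb, Tnf and Lta, the cytokine genes of the TNF cluster, with Nfkbil1 and Atp6v1g2. Of 12 summits, 8 lay at gene ends, with 3.43 to 5.53-fold, and the only peak over 10-fold (10.8-fold) lay 4764 bp from the nearest gene end. Peaks near the starts had 4.95-fold at Ltb (108 bp), 4.54-fold at Tnf (39 bp) and 4.34-fold at Lta (21 bp).

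Several of the largest chains lay at genes outside the T cell lists. The Plekhf2 chain on chromosome 4 (10915418 to 10981596) had 16 summits up to 14.1-fold in a stretch with no protein-coding gene, 7066 bp from Plekhf2. The chain at Igf2r, the receptor that removes IGF2, on chromosome 17 (12746002 to 12810638) had 16 summits of 4.08 to 10.6-fold, 9 upstream and 7 inside. All 16 lay inside Airn, the imprinted lncRNA that overlaps Igf2r. The Rnf157 chain on chromosome 11 (116377243 to 116436838) had 2 very high peaks among 14. The peak of 30.6-fold inside Rnf157 ranked 28 of all peaks, and one of 24.1-fold lay between Rnf157 and Ubald2.

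Ablim1, an actin-binding protein, held all 14 summits of its chain on chromosome 19 (57095515 to 57136460), with peaks of 22.3, 14.2 and 12.1-fold and a peak of 6.51-fold at an internal start. Tnfrsf19 had 14 summits beyond its 3′ end on chromosome 14 (60935867 to 60963418). They had 10.5, 14.0, 7.65, 4.02, 4.11, 14.7, 6.53, 11.4, 10.6, 4.69, 13.2, 8.35, 9.36 and 5.57-fold, so 6 of 14 exceeded 10-fold. Sema4d (CD100), a semaphorin of lymphocytes, had 13 summits on chromosome 13 (51756757 to 51816069). Of these 7 were inside and 6 upstream, the highest at 19.4-fold inside the gene. It was the first by highest peak among the 6 chains with 13 summits.

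The next protein-coding genes beside these large chains lay at very different distances from the outer summits. Besides those given above, Qrich2 lay 4485 bp above the Rnf157 chain and Foxj1 41744 bp below it, and Hemk1 lay 13188 bp above the Mapkapk3 chain and Dock3 46366 bp below it. The gene 2610301B20Rik lay 15993 bp below the Plekhf2 chain, Adra2b 21847 bp above the Astl chain and Mipep 30386 bp below the Tnfrsf19 chain. Mas1 lay 28203 bp above the Igf2r chain. Gadd45g and Secisbp2 lay 30606 bp above and 72713 bp below the Sema4d chain. Afap1l2 lay 66926 bp below and Fam160b1 224463 bp above the Ablim1 chain, and Map3k7 lay 215184 bp below and Gja10 298102 bp above the lower Bach2 chain. Hus1b, 103300 bp above the Exoc2 chain, lies within the Exoc2 gene.

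The remaining chains are given by their number of summits and highest peak. Among genes of cell survival and growth, Mcl1 had 13 summits on both sides of the gene up to 12.5-fold, Ddit4, an inhibitor of mTORC1, had 11 around it up to 9.80-fold, and Tpt1 had 11 up to 10.0-fold. Among genes of RNA control, Ago2, the microRNA effector, had 13 up to 10.6-fold, 12 of them inside the gene, and Arid5a, which stabilizes cytokine mRNAs, had 10 up to 7.51-fold, 8 of them upstream. The Tspoap1 chain with Mir142 had 11 up to 11.1-fold, and Mpo, a myeloid gene, lay 34173 bp above it. Kat2b, a histone acetyltransferase, had 10 summits up to 7.62-fold, 9 inside the gene. Tg, a gene of the thyroid, held 3 of the 12 summits of its chain, and the adaptor gene Sla, a brake on T cell receptor signalling, lay 14338 bp below the first. The 27.8-fold peak there ranked 33 of all peaks.

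The Igsf23 chain had 12 summits up to 10.8-fold and also held Pvr (CD155), a ligand of the receptors Tigit and Cd226. The pseudokinase gene Trib2 had 10 up to 11.3-fold, Filip1 with Tmem30a 10 up to 10.9-fold, and the kinase gene Mapk6 with Leo1 10 up to 7.24-fold. The chain over Pgm5 and Tmem252 had 10, of which 1 was inside Pgm5 and 9 lay downstream of Pgm5. Its neighbouring peaks of 23.3, 16.1 and 14.5-fold lay outside genes, 11020, 10562 and 2357 bp from the nearest gene end. Chains with no protein-coding gene included those beside the chromatin remodeller Chd7 (10 summits, 20033 bp above the gene), Tacc1 (10 up to 20.7-fold, 6832 bp above the gene) and Tomm20 (13 up to 11.1-fold, 62861 bp below the gene). The 37.4-fold peak of the chain beside Chd7 lay 49035 bp above that gene. It ranked 10 of all peaks and was the highest of any chain.

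Long noncoding RNA genes overlapped 21 of the 43 chains, 22 genes in all (0.177% of 12408 on these chromosomes). All 13 summits of the chain near Tomm20 lay inside Gm31718, and 1 of them in A630001O12Rik on the other strand. All 11 of the Lcp2 chain lay inside 4930469K13Rik, which runs on the other strand. In the Dusp2 chain 6 of 15 lay inside Gm46762, and in the Trib2 chain 6 of 10 inside Gm5432, both on the strand opposite to the coding gene. These RNAs were not measured here.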

How the data were processed

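Trim33 ChIP-seq was available as 1 list of peaks. MACS2 2.1.1.20160309, Bowtie 1.2.1.1 and Trim Galore 0.3.7 are named, with build mm10, per the submitters' processing notes. Parameters were not given in the sources used here. The deposited list gives for each peak a fold enrichment (a ratio to the caller's background), a −log10 q-value, a score and a summit, all made by the authors on merged replicates, per the name of the deposited list. The deposited score was not used. Merging hides the spread between cultures, and the unknown depth and threshold bear on how many summits a chain can hold.

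Summits were counted from 1, linked up to 12500 bp and classed against protein-coding genes of RefSeq GRCm38.p6 (Python 3.11.15, pandas 2.3.3, numpy 2.4.6, scipy 1.17.1). Linking and classes were checked on simulated summits. A gene was in a chain where its body overlapped the span from first to last summit. Starts and strands came from the RefSeq promoter table. Chains were named by the gene whose body held most summits, or the nearest gene, with ties in alphabetical order. The 12 chains with the most summits, ties by highest peak, and chains with listed genes were described in full. The members and lists were chosen with earlier results of these data known. Columns of other samples numbered 0. Alternatives varied the link distance, the smallest chain, the peaks used, the gene-end window and the gene rule.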

Additional observations from a re-analysis of the deposited data

How the results depend on the processing

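The number and content of chains depended on the link distance, the smallest size and the peaks used, by construction, while the positions of their summits moved less. The 43 chains, 525 peaks, 50 genes and 5.14% of T cell list genes became 26, 316, 33 and 2.34% with a link of 10000 bp. With 15000 bp there were 65 chains, 801 peaks and 87 genes. Chains of 8 or more summits numbered 105, with 1043 peaks, 110 genes and 38.5% of summits in gene bodies (against 32.0%), and chains of 12 or more 25, with 338 peaks and 32 genes. With peaks at or above the median fold 2 chains were left, with 20 peaks, 2 genes, 0% of T cell list genes, 25% of summits in gene bodies, a median fold of 8.77 (against 6.04) and 40% at 10-fold or more (against 13.5%). With the Sfi1 run kept, 37.7% lay in gene bodies. The share at gene ends, 13.1%, was 9.90% with a window of 500 bp and 21.1% with 2500 bp, and 12.3% to 15.5% under the 8 other alternatives. Of 70 values under alternatives, 46 stayed within 1.5 times a count, within the exact binomial interval of a share, or within the 95% order-statistic interval of the median fold (5.80 to 6.31). No paired analysis was possible because the only list holds 1 value per peak, from merged replicates by its name, and for the same reason no replicate could be left out. Depth per library is unknown, so how many further summits deeper sequencing would add to a chain is unknown too.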

Other observations

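Runs of 9 summits, 1 short of the limit, numbered 22, of which 19 overlapped a protein-coding gene and 3 none. They overlapped 21 of the 20661 protein-coding genes on chromosomes 1 to 19. At a share this small, 0 of 77 genes on the other lists cannot be told apart from the share of all genes. The T cell lists, chosen with earlier results of these data known, held 5 of the 21 genes (2.34% of 214). These were Il6ra, a chain of the IL-6 receptor (highest peak of the run 11.1-fold), Cd2, an adhesion molecule of T cells (9.65-fold), Hivep2 (11.7-fold), Myb (7.98-fold) and Smad7, an inhibitory SMAD (8.59-fold), which lies on chromosome 18, where no chain of 10 was found. The other 16 genes were Rgs1, Otud1, Med12l, Gpr171, Mdfic, Gm46963, Slco3a1, Dnajb12, Septin9, Spef2, Brd2, H2-DMa, Runx2, Rftn1, Ino80c and Klf9. The run of 9 on chromosome 9 from 51977605 to 51990598 overlapped no protein-coding gene and held the highest peak of the whole list, 54.6-fold. On chromosome X the longest run had 6 summits.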
